A study of Mus musculus with 9 samples.

Results

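The genes described here are 10 genes of cell adhesion and cell polarity that act at the compaction of the mouse embryo, *Cdh1*, *Ctnna1*, *Ctnnb1*, *Ctnnd1*, *Ezr*, *Pard3*, *Pard6b*, *Prkci*, *Prkcz* and *F11r*. They were taken by name, with no threshold on their values but with earlier results of these data known, and they are 10 of the 55335 gene entries in the expression tables. FPKM is the number of fragments per kilobase of transcript, scaled to the mapped fragments of the library. All 10 passed the filter for testing, an average of 1 FPKM or more over the 9 libraries, as did 13011 genes. The libraries were Smart-Seq2 poly(A) RNA-seq of pools of 8-cell embryos (5 to 10 embryos per the labels), with 3 libraries in each of 3 groups. Embryos came from in vitro fertilisation of oocytes of superovulated ICR females (the study's young females were 6 to 8 weeks old), were injected as zygotes, were cultured in KSOM medium and were collected at the 8-cell stage (embryonic day 3.0). Control embryos received a nontargeting siRNA. MFN1-KD embryos received siRNA against *Mfn1*, a mitochondrial fusion gene, and H3.3-KD embryos received siRNAs against *H3f3a* and *H3f3b*, the paired genes of histone H3.3. All groups therefore share the injection, and a knockdown lowers a transcript without removing the gene. Each library is a pool of whole embryos, so fewer cells of a type and less RNA per cell cannot be told apart.

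Compaction is the flattening of the blastomeres against each other late in the 8-cell stage. E-cadherin, encoded by *Cdh1*, holds neighbouring cells together, and its cytoplasmic tail binds the catenins, of which β-catenin and α-catenin link it to actin while p120-catenin keeps it at the membrane. At the same time each blastomere gains an apical domain that carries ezrin, PAR3, PAR6 and atypical protein kinase C, and the junctional adhesion molecule JAM-A, encoded by *F11r*, sits beside this domain at the cell contacts. Apical polarity is later needed for the trophectoderm, the outer epithelium of the blastocyst.

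The targeted genes were low in the libraries labelled for them. *Mfn1* was at 9.54, 4.40 and 1.15 FPKM in MFN1-KD against 22.6 to 51.6 in control, a log2 fold change of -2.66 ± 0.58 (SE, limma adjusted p = 0.043, between 0.024 and 0.16 in the alternatives). Without MFN1-KD replicate 3 the *Mfn1* change was -2.05 (adjusted p = 0.073). *H3f3a* lay at 117 to 170 FPKM in H3.3-KD against 1594 to 2110 in control, and *H3f3b* at 171 to 311 against 2895 to 3166 (log2 fold changes of -3.69 and -3.64). In H3.3-KD *Mfn1* was at 40.0 to 100.2 FPKM and overlapped with control (1.205 ± 0.58, limma adjusted p = 0.14, and 0.0017 with library weights). In MFN1-KD *H3f3a* was at 1288 to 1371 FPKM (-0.52 ± 0.20, adjusted p = 0.15) and *H3f3b* at 2695 to 2836 (-0.10 ± 0.21, adjusted p = 0.82), both below every control library. Depth, estimated from the smallest values of the tables, was about 15200000 to 18500000 fragments per library. MFN1-KD replicate 3 had the lowest depth and the fewest genes above 0, 15577 against 19250 to 24820 in the other libraries, so some results in MFN1-KD are also given without it. Cumulus cells, the somatic cells around the oocyte, left little trace: 9 of 11 of their markers stayed under 1 FPKM in every library of each group, *Fshr* and *Inhba* were listed at 0 in all 9, and the summed level (17.5 to 30.7 FPKM in control, 10.3 to 21.8 in MFN1-KD and 40.3 to 68.4 in H3.3-KD) was mostly *Amhr2*. Oocyte-stored transcripts summed to 55.6 to 66.9 FPKM in control, 28.5 to 61.8 in MFN1-KD and 49.1 to 73.1 in H3.3-KD, and trophectoderm markers to 9.08 to 13.5, 1.68 to 4.88 and 4.37 to 22.2. The 10 markers of the 8-cell embryo were each detected in every group, and their sum (10870 to 14070 FPKM in control, 16910 to 20560 in MFN1-KD and 7025 to 8703 in H3.3-KD) was mostly *Dppa3*. They did not go one way: *Pou5f1* was at 5.10 to 8.90 FPKM in control, 0.30 to 3.68 in MFN1-KD and 63.1 to 392 in H3.3-KD, while *Nanog* overlapped across the groups at 16.4 to 22.9, 17.6 to 23.1 and 8.63 to 21.4. Markers of genome activation at the 2-cell stage summed to 24.3 to 30.9 FPKM in control, 23.0 to 90.5 in MFN1-KD and 222 to 524 in H3.3-KD. In H3.3-KD *Tdpoz4* alone made up 211 to 467 against 10.1 to 19.4 in control, and *Zscan4c*, *Zscan4d* and *Tcstv1* overlapped with control. *Zfp352* lay above every control library in both knockdowns, at 6.42 to 11.4 FPKM in MFN1-KD and 2.35 to 34.2 in H3.3-KD against 0.44 to 1.73. The part of these transcripts in the results below was not tested.

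In control embryos the 10 genes spanned from under 1 to over 100 FPKM. *Ctnnb1* had the highest mean level, 106 ± 36 FPKM (SD, n = 3), above 90.3% of the genes tested. *F11r* followed at 64.9 ± 15.2 FPKM, then *Ctnna1* at 27.1 ± 6.3, *Prkcz* at 21.6 ± 1.7, *Cdh1* at 13.7 ± 5.6 and *Ctnnd1* at 9.94 ± 1.02. The remaining polarity genes were lower, with *Pard3* at 6.49 ± 1.22 FPKM, *Prkci* at 3.33 ± 0.97, *Pard6b* at 1.503 ± 0.775 and *Ezr* at 0.67 ± 0.67. FPKM is per length, so these levels can be ordered, but the ranges of neighbours overlapped between *Ctnnb1* and *F11r*, from *Ctnna1* through *Prkcz* and *Cdh1* to *Ctnnd1*, and between *Pard6b* and *Ezr*. The ranges did not overlap at the steps from *F11r* to *Ctnna1*, *Ctnnd1* to *Pard3*, *Pard3* to *Prkci* and *Prkci* to *Pard6b*. Control replicate 1 gave the highest of the 3 control values for 7 of the 10 genes and control replicate 3 the lowest for 9 of 10.

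**Figure D1:**
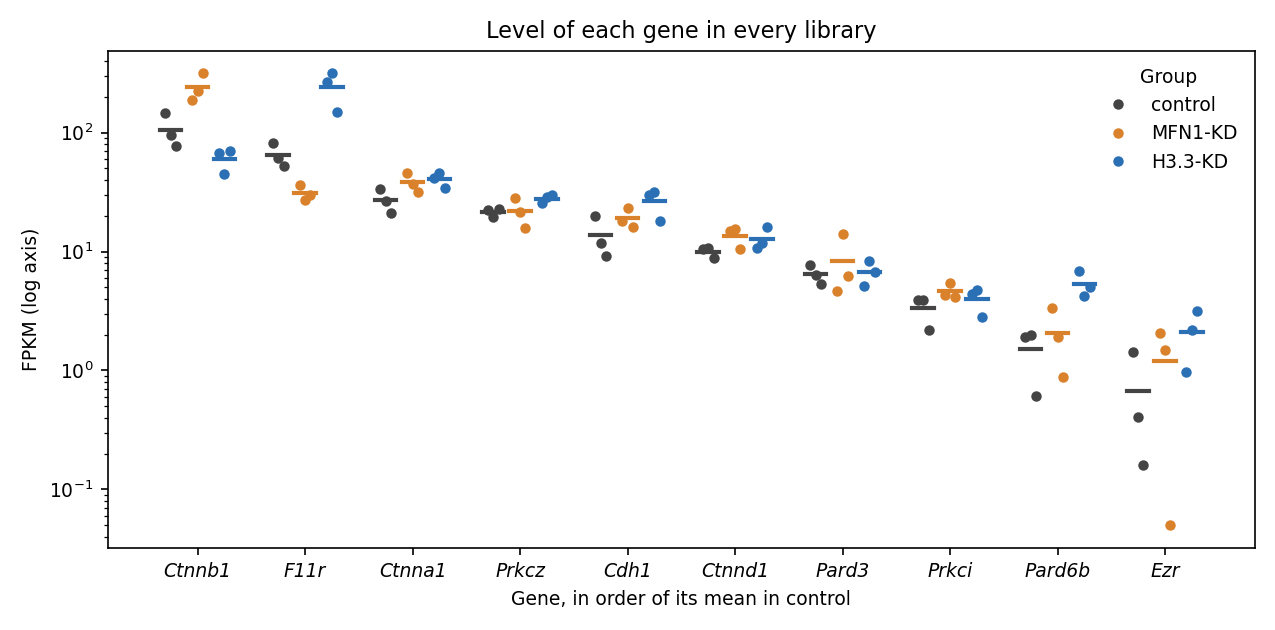
FPKM of the 10 genes (log axis) in each of the 9 libraries, with points for libraries and a horizontal bar for the mean of the 3 libraries of a group (grey control, orange MFN1-KD, blue H3.3-KD). *F11r* is highest in H3.3-KD (148 to 315 FPKM) and lowest in MFN1-KD (27.2 to 36.3 FPKM), while *Ctnnb1* has the opposite order.

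The knockdowns were compared with control to ask which adhesion and polarity transcripts differ when either factor is depleted. By limma on log2(FPKM + 1), 2 of the 10 genes, *F11r* and *Pard6b*, rose in H3.3-KD at an adjusted p below 0.05, against 31.0% of all genes tested in either direction and 21.8% upwards, so the share of genes called is not higher than in the table as a whole. None of the 10 was called in MFN1-KD, where 3.35% of all genes were (0 to 1393 genes in the alternatives), although *Ctnnb1* and *F11r* had an unadjusted p below 0.05, as did 23.2% of all genes. Under the threshold of the study's methods (more than 2-fold with an unadjusted p below 0.05) the counts were 2 in H3.3-KD, *F11r* and *Pard6b*, and 2 in MFN1-KD, *Ctnnb1* upwards and *F11r* downwards. The shares of all genes under that threshold were 33.3% and 14.1%. In the direct comparison of the knockdowns, *Ctnnb1* and *F11r* were called, with 38.6% of all genes. Both knockdowns were set against the same 3 control libraries, so their differences from control are not independent of each other.

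The 10 genes had a median log2 fold change of 0.47 for H3.3-KD against a value of 0.26 over all genes tested, and of 0.37 for MFN1-KD against -0.08. The median over all genes in H3.3-KD depends on scaling: with the libraries scaled by median ratios it was -0.0044, and the share of higher genes among those called went from 70.5% to 53.9%. With upper-quartile scaling the median was -0.066, and *Prkcz* in H3.3-KD went from 0.36 to -0.057. Differences in H3.3-KD of 0.36 or less on the log2 scale are therefore within what the choice of scaling moves. The shift can be somewhat larger than 0.36, as *Ctnnb1* in H3.3-KD went from -0.77 to -1.20 with upper-quartile scaling. The libraries of a group are described in the study as biological replicates, without saying whether they came from separate fertilisations, and the p-values measure the spread between them.

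**Figure D2:**
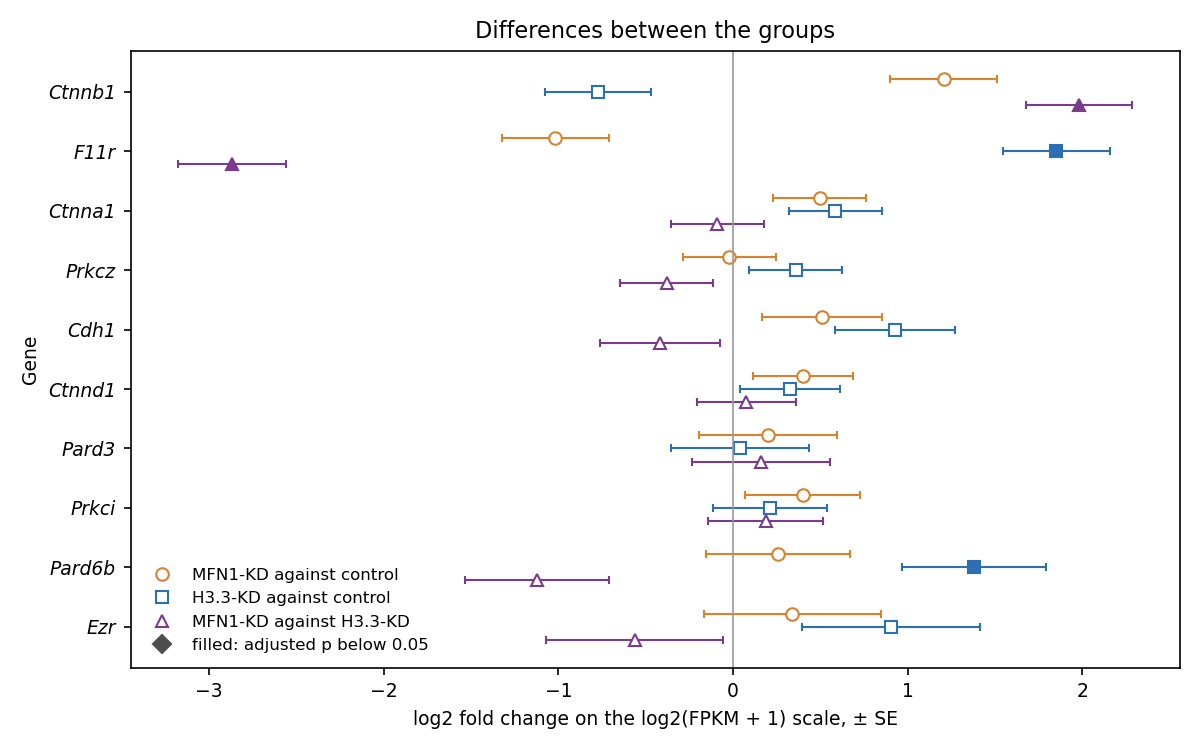
Log2 fold change with its SE for the 10 genes in the 3 comparisons (circles MFN1-KD against control, squares H3.3-KD against control, triangles MFN1-KD against H3.3-KD), on the log2(FPKM + 1) scale, with filled symbols where the adjusted p was below 0.05. The filled symbols are *F11r* and *Pard6b* in H3.3-KD (1.85 and 1.38) and *Ctnnb1* and *F11r* between the knockdowns (1.98 and -2.87).

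*Cdh1* (ENSMUSG00000000303.12), the adhesion receptor itself, measured 19.88, 11.90 and 9.18 FPKM in the control libraries, 18.12, 23.10 and 16.21 in MFN1-KD and 29.75, 31.37 and 17.98 in H3.3-KD. The first control library lay within the values of both knockdowns, so the groups overlapped. The H3.3-KD mean was 1.93 times that of control, with a log2 fold change of 0.93 ± 0.34 (SE, limma adjusted p = 0.063). Single libraries decided the call, since *Cdh1* passed the test without control replicate 1 (1.22, adjusted p = 0.028) or without H3.3-KD replicate 3 (1.17, adjusted p = 0.040), and with the trend over GC content and length removed the log2 fold change was 0.29 (adjusted p = 0.50). In MFN1-KD it was 0.51 ± 0.34 (adjusted p = 0.41).

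*Ctnnb1* (ENSMUSG00000006932.17; GRCm38, chr9:120929216-120960507, plus strand) encodes β-catenin, which binds E-cadherin and also acts in Wnt signalling. It measured 145.5, 95.1 and 76.8 FPKM in control, 187.8, 224.5 and 314.5 in MFN1-KD and 67.0, 44.6 and 69.5 in H3.3-KD. Every MFN1-KD library was above every control library and every H3.3-KD library below them. It differed from control by a log2 fold change of 1.21 ± 0.30 in MFN1-KD (SE, limma adjusted p = 0.059, unadjusted p = 0.0025) and -0.77 ± 0.30 in H3.3-KD (adjusted p = 0.077). Without MFN1-KD replicate 3, the highest *Ctnnb1* value, the MFN1-KD log2 fold change was 1.00. With median-ratio scaling the H3.3-KD log2 fold change was -1.12 and passed the test (adjusted p = 0.026), as it did with the GC and length trend removed (-1.46, adjusted p = 0.0082). Between the knockdowns *Ctnnb1* was 4.01 times higher in MFN1-KD, a log2 difference of 1.98 ± 0.30 (adjusted p = 0.00077).

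*Ctnna1* and *Ctnnd1*, the α-catenin and p120-catenin genes, moved less. *Ctnna1* measured 21.02 to 33.7 FPKM in control, 32.0 to 46.1 in MFN1-KD and 34.4 to 46.1 in H3.3-KD, with log2 fold changes of 0.50 ± 0.27 and 0.58 ± 0.27 (limma adjusted p = 0.30 and 0.12). *Ctnnd1* measured 8.77 to 10.6 FPKM in control, 10.5 to 15.4 in MFN1-KD and 10.7 to 16.0 in H3.3-KD, with log2 fold changes of 0.40 ± 0.29 and 0.33 ± 0.29 (adjusted p = 0.43 and 0.42). For both genes the H3.3-KD libraries lay just above the control libraries without overlap. *Ctnna1* in H3.3-KD passed the test with library weights (0.71, limma adjusted p = 0.0082) and stayed at 0.42 to 0.75 with any 1 library left out. For both genes the sign in H3.3-KD turned with the GC and length trend removed (-0.04 and -0.06). That of *Ctnnd1* also turned with upper-quartile scaling (-0.07). No direction that holds in every alternative can therefore be given for either gene.

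*F11r* (ENSMUSG00000038235.4; GRCm38, chr1:171437535-171464603, plus strand) encodes JAM-A, an immunoglobulin-type adhesion molecule of tight junctions. It measured 81.7, 60.9 and 52.0 FPKM in control, 36.3, 27.2 and 30.0 in MFN1-KD and 268.9, 314.9 and 148.4 in H3.3-KD. No value of one group fell in the range of another, with MFN1-KD lowest and H3.3-KD highest. *F11r* rose 3.76-fold after H3.3 knockdown, which is a log2 fold change of 1.85 ± 0.31 (SE, limma adjusted p = 0.0017), and stayed past the test in every alternative run, where the log2 fold change lay between 1.24 and 2.17. In MFN1-KD the mean was 48.1% of control, with a log2 fold change of -1.02 ± 0.31 (unadjusted p = 0.0074, adjusted p = 0.090), between -1.16 and -0.76 in the alternatives. Between the knockdowns the log2 difference was -2.87 ± 0.31 (adjusted p = 0.00012). The exact permutation test of 3 against 3 libraries gave p = 0.10 for each of the 3 comparisons, the smallest it allows. *F11r* was thus the gene of the 10 with the largest difference in H3.3-KD on the log2(FPKM + 1) scale and moved from second to first in the order of levels there.

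*F11r* and *Ctnnb1* differed in opposite directions in each knockdown. Their ratio within a library, chosen after their values were seen, does not depend on how libraries are scaled. *F11r* over *Ctnnb1* was 0.56, 0.64 and 0.68 in control, 0.19, 0.12 and 0.10 in MFN1-KD and 4.01, 7.06 and 2.14 in H3.3-KD. There were fewer *F11r* than *Ctnnb1* fragments per length in every control and MFN1-KD library and more in every H3.3-KD library. *Ctnnb1* over *Cdh1*, the receptor it binds, was 7.32, 7.99 and 8.37 in control, 10.4, 9.72 and 19.4 in MFN1-KD and 2.25, 1.42 and 3.86 in H3.3-KD, again without overlap. *F11r* over *Cdh1* was 4.11 to 5.67 in control, 1.18 to 2.00 in MFN1-KD and 8.25 to 10.0 in H3.3-KD. By contrast the groups overlapped for *Ctnna1* over *Cdh1* (1.69 to 2.29 in control, 1.60 to 2.55 in MFN1-KD, 1.40 to 1.91 in H3.3-KD) and for *Ctnnd1* over *Cdh1*. Each ratio without overlap gave an exact permutation p of 0.10, the smallest that 3 against 3 libraries allow, and 9 ratios were computed. *F11r* and *Ctnnb1* each separated the 3 groups, in opposite orders. The lack of overlap of *F11r* over *Ctnnb1* was therefore fixed beforehand, and its p adds no support.

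**Figure D3:**
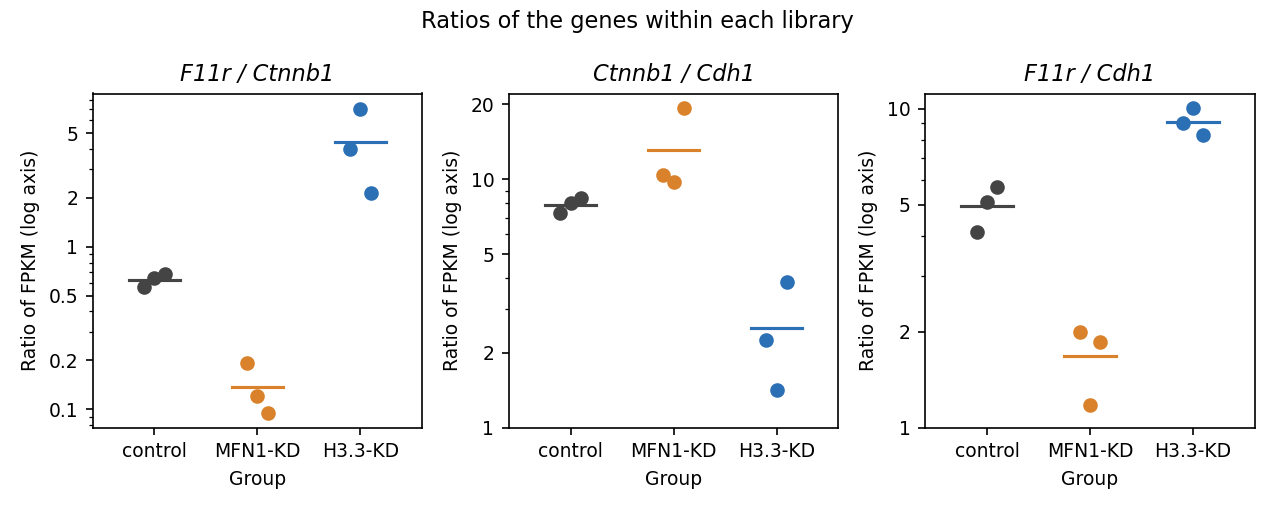
Ratio of FPKM values within each library (log axes) for *F11r* over *Ctnnb1*, *Ctnnb1* over *Cdh1* and *F11r* over *Cdh1*, with points for the 3 libraries of a group and a bar for their mean. The 3 groups do not overlap in any of the panels, and the mean *F11r* over *Ctnnb1* ratio is 0.63 for control, 0.14 for MFN1-KD and 4.40 for H3.3-KD. For *F11r* over *Ctnnb1* the lack of overlap follows from the values of the genes themselves.

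*Pard6b* (ENSMUSG00000044641.7; GRCm38, chr2:168081004-168101203, plus strand) encodes a PAR6 protein, the adaptor that joins PAR3 and atypical protein kinase C to CDC42. It measured 1.91, 1.99 and 0.61 FPKM in control, 3.34, 1.93 and 0.88 in MFN1-KD and 6.83, 4.21 and 5.05 in H3.3-KD. All H3.3-KD libraries lay above all others, while MFN1-KD overlapped with control. *Pard6b* rose 3.57-fold after H3.3 knockdown, which is a log2 fold change of 1.38 ± 0.41 (SE, limma adjusted p = 0.027), on about 256 to 430 fragments per H3.3-KD library against 38 to 120 in control. The call ended with median-ratio scaling (1.11, adjusted p = 0.057) and with the GC and length trend removed (0.44, adjusted p = 0.42), and without any 1 of control replicates 2 and 3 and the 3 H3.3-KD replicates (adjusted p = 0.051 to 0.12). Genes of GC content like that of *Pard6b* (the same decile) had a median log2 fold change of 0.63 in H3.3-KD. In MFN1-KD the log2 fold change was 0.26 ± 0.41 (adjusted p = 0.75).

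*Pard3*, the scaffold of the PAR complex, showed no difference larger than the spread of the libraries in either knockdown. It measured 5.32 to 7.75 FPKM in control, 4.66 to 14.1 in MFN1-KD and 5.18 to 8.31 in H3.3-KD (log2 fold changes of 0.20 ± 0.39 and 0.04 ± 0.39, limma adjusted p = 0.80 and 0.95). The atypical protein kinase C genes *Prkci* and *Prkcz* were likewise not called. *Prkci* measured 2.21 to 3.90 FPKM in control, 4.16 to 5.40 in MFN1-KD and 2.83 to 4.73 in H3.3-KD, and *Prkcz* 19.6 to 22.7, 15.7 to 27.9 and 25.6 to 29.6 (adjusted p between 0.34 and 0.98). *Prkcz* exceeded *Prkci* per length in every library, by 3.77 to 10.5 times. *Prkcz* had the least variable level of the 10 genes in control and H3.3-KD, with coefficients of variation of 8.02% and 7.498%, and 28.3% in MFN1-KD, where replicate 3 was lowest.

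*Ezr*, which encodes ezrin, the link between the apical membrane and actin and a classical mark of the polarised blastomere, was at the edge of detection. It measured 1.43, 0.41 and 0.16 FPKM in control, 2.07, 1.50 and 0.05 in MFN1-KD and 0.97, 2.17 and 3.17 in H3.3-KD, about 2 to 180 fragments per library. The groups overlapped, and neither difference passed the test (log2 fold changes of 0.34 ± 0.51 and 0.90 ± 0.51, limma adjusted p = 0.73 and 0.20). With library weights, *Ezr* in H3.3-KD passed the test (0.99, adjusted p = 0.024), and over the alternatives its log2 fold change there lay between 0.04 and 1.76. *Rdx*, the gene of the related protein radixin, was at 7.78 to 21.9 FPKM in control, 15.6 to 34.6 in MFN1-KD and 16.8 to 21.97 in H3.3-KD, and *Msn*, of moesin, at or below 2.32 FPKM in all 9 libraries. *Rdx* exceeded *Ezr* by at least 6.93 times in each library, and neither *Rdx* nor *Msn* was called.

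Across all 10 genes, 6 had H3.3-KD and control libraries that did not overlap (5 higher and 1 lower), beside 53.4% of all genes tested. In MFN1-KD 3 did not overlap with control (*Ctnnb1* and *Prkci* higher, *F11r* lower), beside 28.2% of all genes. Log2 fold changes were positive for 9 of 10 genes in H3.3-KD and 8 of 10 in MFN1-KD, against 59.5% and 44.5% of all genes tested. The H3.3-KD count rests on scaling, being 7 of 10 with median-ratio scaling, 5 of 10 with upper-quartile scaling and 4 of 10 with the GC and length trend removed (49.4%, 47.1% and 48.9% of all genes), so no shared direction of the 10 genes can be given. In MFN1-KD it was 9 of 10 in each of these.

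Among genes averaging 10 FPKM or more, the 3 whose log2(FPKM + 1) followed *Cdh1* most closely over the 9 libraries were *Dync1li2* (Pearson r = 0.98), a dynein subunit gene, *Usp53* (r = 0.96) and *Isoc1* (r = 0.95), out of 5932 genes searched. Of the other adhesion and polarity genes *Ctnna1* was closest to *Cdh1* (r = 0.88), followed by *Prkci* and *Pard6b* (both 0.72), whereas *Ctnnb1*, its direct binding partner, was at -0.18. The 9 points fall into 3 groups and share each library's composition and depth, so these values describe the tables only.

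The other genes of these pathways were taken from 6 lists without the 10 genes above, of 124 genes in all, of which 95 were tested. In H3.3-KD 32 rose and 5 fell, 38.9% of those tested against 31.0% of all genes, and in MFN1-KD 1 rose and 1 fell, 2.11% against 3.35%. With median-ratio scaling the H3.3-KD counts were 27 higher and 10 lower, and with the GC and length trend removed 15 and 12, so the balance of directions rests on these choices. Of the 95 genes 4 passed the filter on low values only through H3.3-KD, with means under 1 FPKM in control and MFN1-KD, and 3 of these, *Mark4*, *Fmnl3* and *Cdx2*, are among the 32 that rose.

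Of 17 adherens junction partners tested, 7 rose in H3.3-KD and none fell, 41.2% beside 31.0% of all genes. *Jup*, which encodes plakoglobin (γ-catenin), the closest relative of β-catenin, had the smallest p. It measured 1.19, 1.69 and 1.86 FPKM in control, 0.84, 1.94 and 0.75 in MFN1-KD and 22.3, 23.3 and 21.1 in H3.3-KD, and its log2 fold change was 3.18 ± 0.32 (limma adjusted p = 0.00017). With the GC and length trend removed it was 1.83 (adjusted p = 0.0026), and genes of GC content like that of *Jup* had a median of 1.10. *Jup* over *Ctnnb1* was 0.0082 to 0.024 in control and 0.30 to 0.52 in H3.3-KD. *Afdn*, the afadin gene (log2 fold change 0.73 ± 0.26, adjusted p = 0.055), and *Vcl*, the vinculin gene (0.52 ± 0.32, adjusted p = 0.25), were not called. In MFN1-KD the 1 gene called was *Nectin3*, which encodes an adhesion receptor that binds afadin, at 7.79 to 14.6 FPKM against 2.63 to 3.11 (1.49 ± 0.34, adjusted p = 0.047). Its call ended without any 1 of 8 of the 9 libraries (adjusted p = 0.052 to 0.18).

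Of 17 apical polarity partners tested, 4 rose and 1 fell in H3.3-KD, 29.4% and so no more than the 31.0% of all genes. *Rac1*, a small GTPase of the cortex, was at 131 to 158 FPKM against 40.1 to 43.3 in control (log2 fold change 1.75 ± 0.26, limma adjusted p = 0.0009). *Amot*, the angiomotin gene, whose product ties junctions to Hippo signalling, was at 0.15 to 1.85 FPKM against 2.58 to 5.52 (-1.26 ± 0.40, adjusted p = 0.035), and its call ended without any 1 of the control libraries or H3.3-KD replicates 1 and 3 (adjusted p = 0.058 to 0.12). In MFN1-KD *Amot* was at 11.4 to 12.9 FPKM (1.49 ± 0.40, adjusted p = 0.070). *Crb3*, which encodes the apical determinant Crumbs3, was the 1 partner called in MFN1-KD. It measured 129.8, 132.1 and 129.1 FPKM in control, 80.8, 51.3 and 41.9 in MFN1-KD and 320.0, 360.3 and 423.6 in H3.3-KD. The log2 fold change was -1.21 ± 0.25 in MFN1-KD (adjusted p = 0.039) and 1.48 ± 0.25 in H3.3-KD (adjusted p = 0.0020). With the GC and length trend removed these were -0.72 (adjusted p = 0.12) and 0.77 (adjusted p = 0.040), and the genes of GC content like that of *Crb3* had a median of 1.10 in H3.3-KD. The MFN1-KD call of *Crb3* ended without any 1 of 7 libraries, MFN1-KD replicate 3 (-1.01, adjusted p = 0.063) and all control libraries among them, with adjusted p = 0.055 to 0.16. *Pard6a* was at 8.40 to 12.5 FPKM in control and at 3.88, 9.24 and 0.05 in MFN1-KD, the last in replicate 3, and was not called in either knockdown, nor was *Cdc42* (adjusted p = 0.50 and 0.75). *Pard6g* was below the level needed for testing.

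Of 14 basolateral genes tested 4 rose in H3.3-KD, 28.6% beside 31.0% of all genes. The smallest p was that of *Mark4*, a PAR1-type kinase gene, at 8.20 to 12.4 FPKM against 0.63 to 0.91 (log2 fold change 2.68 ± 0.35, limma adjusted p = 0.00049, and 1.23 with the GC and length trend removed, adjusted p = 0.015). *Mark4* was tested only because of its level in H3.3-KD, so its call adds nothing to the count. Of 11 tight junction genes tested 4 rose and 1 fell in H3.3-KD (45.5%). No gene of either list was called in MFN1-KD, where 3.35% of all genes were. In the direct comparison of the knockdowns, 41 of the 95 genes of all lists were called, 9 higher and 32 lower in MFN1-KD. Of all 13011 genes, 1437 were called higher and 3591 lower there. With the GC and length trend removed the list counts were 16 higher and 15 lower. The 95 include the 4 genes tested only through H3.3-KD. *Cldn4*, a claudin gene, measured 7.97, 4.15 and 3.29 FPKM in control, 11.01, 7.74 and 0.56 in MFN1-KD and 103.8, 117.8 and 119.5 in H3.3-KD (4.29 ± 0.65, adjusted p = 0.0010, between 3.404 and 4.61 in the alternatives). *Tjp1*, which encodes the scaffold ZO-1 that JAM-A binds, was at 4.49 to 6.27 FPKM in H3.3-KD against 8.56 to 18.0 in control (-1.01 ± 0.34, adjusted p = 0.046). Its call ended without any 1 of 8 of the 9 libraries (adjusted p = 0.053 to 0.14).

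Of 26 actomyosin genes tested, 7 rose and 3 fell in H3.3-KD, 38.5% beside 31.0% of all genes. *Fmnl3*, among the 7, was tested only because of its level in H3.3-KD. None was called in MFN1-KD, where 3.35% of all genes were. *Rhoa*, the GTPase that activates cortical myosin, was at 324 to 361 FPKM in H3.3-KD, 73.7 to 119 in MFN1-KD and 139 to 151 in control (log2 fold changes of 1.22 ± 0.21 and -0.61 ± 0.21, limma adjusted p = 0.0022 and 0.13). *Myl6*, a myosin light chain gene, fell to 171 to 386 FPKM in H3.3-KD from 760 to 990 (-1.58 ± 0.35, adjusted p = 0.0075, between -2.47 and -1.20 in the alternatives). Of 10 regulators of polarisation tested, 6 rose in H3.3-KD, beside 31.0% of all genes called in either direction. *Cdx2* is among the 6 but was tested only because of its level in H3.3-KD, so its call adds nothing to the count. The transcription factor genes *Tfap2c* and *Tead4* were at 54.3 to 62.7 and 79.1 to 89.9 FPKM against 16.5 to 30.9 and 30.4 to 39.1 (1.36 ± 0.28 and 1.28 ± 0.23, adjusted p = 0.0047 and 0.0026), and *Yap1*, a coactivator of TEAD4, at 36.3 to 69.2 against 6.29 to 9.43 (2.43 ± 0.32, adjusted p = 0.00049). With the GC and length trend removed, *Tfap2c* (0.51, adjusted p = 0.21) and *Tead4* (-0.0033, adjusted p = 0.99) lost their calls while *Yap1* kept it. In MFN1-KD *Tfap2c* was at 35.0 to 50.9 FPKM (0.84 ± 0.28, adjusted p = 0.11) and *Tead4* at 25.8 to 38.1 (-0.13 ± 0.23, adjusted p = 0.78).

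**Figure D4:**
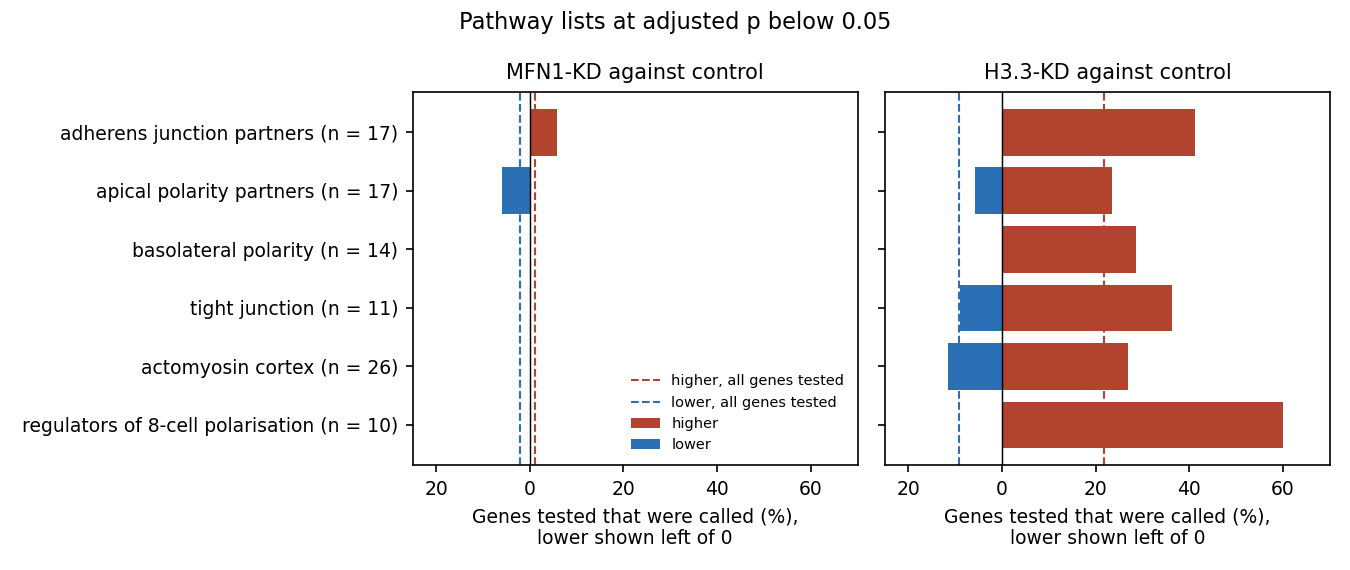
Percent of the genes tested in each of the 6 pathway lists that were called at an adjusted p below 0.05, higher (red, to the right) or lower (blue, to the left), in MFN1-KD and H3.3-KD against control, with dashed lines for the share of all 13011 genes tested. In H3.3-KD the lists range from 4 of 14 basolateral genes to 6 of 10 regulators called, beside 31.0% of all genes. The bars include *Mark4*, *Fmnl3* and *Cdx2*, which were tested only because of their levels in H3.3-KD.

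The promoters of the members called in a comparison are shown because *F11r* and *Pard6b* rose in H3.3-KD while *Ctnnb1* was lower there. RefSeq promoters (GRCm38.p6) were held for 8 of the 10 genes, all but *Cdh1* and *Ctnna1*. The sequences below are the 250 bases before the start site on the strand of the gene, in lower case with 3 motifs in capitals, searched on both strands: GGAATG of TEAD factors, GCCNNNGGC of AP-2 factors such as TFAP2C, and the E-box CACCTG. *F11r* is read from chr1:171437311-171437560 (plus strand), *Pard6b* from chr2:168080754-168081003 (plus strand) and *Ctnnb1* from chr9:120933150-120933399 (plus strand). The start sites are those of RefSeq and differ from the gene spans given above for *Ctnnb1* and *F11r*. The *Ctnnb1* window lies wholly inside its span, which begins at chr9:120929216. The *F11r* window ends just inside its span, which begins at chr1:171437535.
F11r: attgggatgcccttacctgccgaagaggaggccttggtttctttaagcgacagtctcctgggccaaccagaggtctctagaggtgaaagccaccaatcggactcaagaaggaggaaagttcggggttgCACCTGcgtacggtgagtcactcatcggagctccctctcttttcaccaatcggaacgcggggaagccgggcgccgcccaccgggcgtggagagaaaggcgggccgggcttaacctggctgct
Pard6b: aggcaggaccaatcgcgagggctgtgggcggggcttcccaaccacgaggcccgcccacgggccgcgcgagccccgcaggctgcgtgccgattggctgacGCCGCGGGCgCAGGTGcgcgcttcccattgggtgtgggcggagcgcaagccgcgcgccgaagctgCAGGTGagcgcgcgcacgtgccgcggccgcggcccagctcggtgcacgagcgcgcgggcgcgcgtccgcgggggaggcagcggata
Ctnnb1: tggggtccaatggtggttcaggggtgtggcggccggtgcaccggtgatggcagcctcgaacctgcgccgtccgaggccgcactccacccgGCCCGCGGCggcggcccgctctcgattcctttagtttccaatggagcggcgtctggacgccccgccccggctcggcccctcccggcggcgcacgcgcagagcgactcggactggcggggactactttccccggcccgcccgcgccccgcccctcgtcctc
*F11r* holds 1 E-box, *Pard6b* 2 E-boxes and 1 AP-2 motif, and *Ctnnb1* 1 AP-2 motif. Of all 32851 promoters of this length, 17.2% held the E-box, 13.7% the AP-2 motif and 12.6% the TEAD motif. The windows of *F11r*, *Pard6b* and *Ctnnb1* held 17, 43 and 35 CpG dinucleotides, against a median of 6 over all promoters. Those of *Pard3*, *Ezr*, *Prkcz*, *Prkci* and *Ctnnd1*, not shown, held 34, 32, 25, 17 and 3. *Prkcz* also held 2 E-boxes and 1 AP-2 motif, *Pard3* 2 AP-2 motifs and *Prkci* 1 TEAD motif, and *Ezr* and *Ctnnd1* held none of these. Many CpG and these motifs are thus not particular to the members called. These letters describe the windows and are no evidence of binding.

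Some of the genes share bases with neighbours. Exons of 4 of the 10 genes overlap with exons of another annotated gene. *Ctnnb1* overlaps with *Ulk4* on the opposite strand, which measured 20.9, 30.5 and 13.3 FPKM in control, 7.98, 4.89 and 0.07 in MFN1-KD and 9.19, 6.44 and 8.10 in H3.3-KD. *Ezr* overlaps with *Sytl3* on the opposite strand, at 0.05 to 2.51 FPKM, close to the level of *Ezr* itself, so the values of *Ezr* are uncertain for this reason too. The overlapping genes of *Ctnna1* and *Ctnnd1* had group means under 1 FPKM. Per the methods the cDNA was amplified by PCR and sheared before library preparation, and no step that keeps strand is named. Whether counting used strand is not given in the sources used here, and without strand the reads of such pairs cannot be told apart.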

How the data were processed

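Per the file headers and values, the authors deposited 1 table of FPKM per library, with 2 decimals. Per the labels and methods, reads were trimmed with cutadapt 1.16 and mapped to mm10 with STAR; the program that made the FPKM, its annotation and its strand setting are not given in the sources used here. FPKM are not counts, so the count test of the study could not be used. Depth (about 15200000 to 18500000 fragments per library) was estimated from the smallest values and gene lengths.

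Genes averaging 1 FPKM or more were tested on log2(FPKM + 1), a scale that understates the change of low genes, with limma 3.58.1 (R 4.3.3, linear model over all 9 libraries, moderated with trend and robust options, two-sided, Benjamini-Hochberg over all 13011 genes). Adjusted p below 0.05 was a call. On data simulated for H3.3-KD against control, 68.0% of 200 genes changed by 2 on the log2 scale were recovered. Only these 200 of the 13011 genes were changed, and they were drawn from genes above the lowest control levels. In the real comparison 31.0% of genes were called, so the 68.0% does not give the share of real changes found. Single values were tested by exact permutation. Annotation is GENCODE of GRCm38.

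The members and lists were chosen with earlier results of these data known. Beyond the 10 members and the targeted genes, the text names, by rule, for each list and knockdown the called gene with the smallest p and the called gene with the largest change the other way, 12 further genes fixed by name, and the 3 genes most like *Cdh1*. *Fshr*, *Inhba*, *Amhr2*, *Pou5f1*, *Nanog*, *Dppa3*, *Tdpoz4*, *Zscan4c*, *Zscan4d*, *Zfp352*, *Tcstv1*, *Fmnl3*, *Cdx2*, *Ulk4* and *Sytl3* were named after their values were seen. Alternatives changed scaling, filter, pseudocount, libraries, weights, the replicate block and a GC and length trend.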

Additional observations from a re-analysis of the deposited data

Results flagged for a closer look

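Among the 10 genes, 2 differed between the knockdowns by the direct test of MFN1-KD against H3.3-KD, which is also the test that their differences from the shared control are unequal. *Ctnnb1* was higher in MFN1-KD than in H3.3-KD by 1.98 on the log2(FPKM + 1) scale (limma adjusted p = 0.00077, higher in 3 of 3 libraries), and *F11r* was lower, with a difference of -2.87 (adjusted p = 0.00012, lower in 3 of 3). Both calls held in every alternative run, with ranges of 1.78 to 2.72 and -3.19 to -2.00. Groups of 3 libraries were too small for the test of single outlying samples.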

How the results depend on the processing

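The calls of *F11r* in H3.3-KD and of *F11r* and *Ctnnb1* between the knockdowns held in all alternatives run, and the order of levels in control was unchanged by median-ratio scaling and without any 1 control library. Other calls moved. Among the 10 genes, 528 values were recomputed under alternatives, 37 changed sign and 25 changed their side of the threshold. None of the values that changed sign was called. The number of the 10 genes called in H3.3-KD was 2, but 1 with no filter on low values, 6 with library weights, and 1 to 3 with 1 library left out. In MFN1-KD it was 0, but 1 (*Ctnnb1*) with a minimum mean of 10 FPKM or with library weights, and 0 with any 1 library left out. Over all genes, 436 were called in MFN1-KD, and 1393 with library weights, 657 with a minimum mean of 10 FPKM, 31 with the replicate block, 2 with no filter, 0 with only the 6 libraries compared (2724 at an unadjusted p below 0.05) and 0 to 665 with 1 library left out. In H3.3-KD 4028 were called, and 6980 with library weights, 2590 with a minimum mean of 10 FPKM and 2549 or 2432 without control replicate 2 or 3. Between the knockdowns 5028 were called, and 2980 with a minimum mean of 10 FPKM. Of the pathway lists, 2 genes were called in MFN1-KD, but 6 with median-ratio scaling, 0 with no filter and 1 with a pseudocount of 0.1, and 37 in H3.3-KD, but 22 with a minimum mean of 10 FPKM, where fewer genes were tested. The causes of these changes were not tested.

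Whether the replicate numbers pair the libraries cannot be settled from these values. Same-numbered libraries of different groups had deviations from their group means that correlated between -0.05 and 0.16. For libraries of different number and group the range was -0.12 to 0.072. The largest values, 0.16 and 0.14, came from same-numbered libraries, but not every library correlated best with its own number. With the replicate number as a block, 3 of the 10 genes were called in H3.3-KD (with *Cdh1*, adjusted p = 0.049), 0 in MFN1-KD and 3 between the knockdowns (with *Pard6b*, adjusted p = 0.040). Under the block *Nectin3*, *Crb3* and *Tjp1* were not called.

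Values that changed sign, on the log2 scale, were as follows. With median-ratio scaling they were 0.040 for *Prkcz* in MFN1-KD, -0.26, -0.058 and -0.074 for *Pard3*, *Prkci* and *Msn* in H3.3-KD, and 0.32 and 0.020 for *Ctnna1* and *Prkcz* between the knockdowns. With upper-quartile scaling they were 0.031 for *Prkcz* in MFN1-KD, -0.070, -0.33, -0.12, -0.057 and -0.12 for *Ctnnd1*, *Pard3*, *Prkci*, *Prkcz* and *Msn* in H3.3-KD, and 0.049, 0.39 and 0.088 for *Cdh1*, *Ctnna1* and *Prkcz* between the knockdowns. With library weights they were 0.22, 0.71 and 0.21 for *Prkcz*, *Cldn4* and *Msn* in MFN1-KD. With the GC and length trend removed they were 0.051, 0.38 and 0.023 for *Prkcz*, *Cldn4* and *Tead4* in MFN1-KD, -0.045, -0.056, -0.64, -0.020, -0.42, -0.14, -0.40 and -0.0033 for *Ctnna1*, *Ctnnd1*, *Pard3*, *Prkci*, *Prkcz*, *Pard6a*, *Msn* and *Tead4* in H3.3-KD, and 0.24, 0.55, 0.46 and 0.47 for *Cdh1*, *Ctnna1*, *Ezr* and *Prkcz* between the knockdowns. With 1 library left out, the ranges that crossed 0 were, in MFN1-KD, -0.21 to 0.50 for *Pard3*, -0.039 to 0.56 for *Pard6b*, -0.22 to 0.18 for *Prkcz*, -0.063 to 0.40 for *Mark4*, -0.66 to 0.81 for *Cldn4*, -0.64 to 0.22 for *Msn* and -0.27 to 0.0033 for *Tead4*. In H3.3-KD they were -0.10 to 0.19 for *Pard3*, -0.086 to 0.37 for *Msn* and -0.26 to 0.059 for *Cdc42*. Between the knockdowns they were -0.23 to 0.031 for *Ctnna1*, -0.039 to 0.24 for *Ctnnd1* and -0.25 to 0.46 for *Pard3*. Counting error is largest for *Ezr* and *Pard6b*, with about 2 to 180 and 38 to 430 fragments per library.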
